A study of Rattus norvegicus with 36 samples.

Results

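The blood of rats whose thorax had received 15 Gy at once 4 weeks earlier was compared with the blood of unirradiated rats of the same week. The comparison was taken from the labels and used 6 of the 36 libraries of the series, 3 per group, read by small RNA sequencing. All rats were female WAG/RijCmcr. Those of the 15 Gy group were irradiated un-anesthetized with X-rays at 9 to 10 weeks of age. The 0 Gy 4 week group was kept alongside and was age matched. The whole thorax was exposed, so the lungs, the heart and a little of the liver lay in the beam. Whole blood was drawn from the heart, and cells and plasma were not separated. By the study's methods each library pooled RNA of 3 rats, so the replicates carry the spread between pools and not that between single rats. In such bulk blood, fewer cells of a type and less RNA per cell cannot be told apart.

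MicroRNAs (miRNAs) are short RNAs that guide silencing proteins to messenger RNAs, chiefly through their seed, bases 2 to 8 counted from the 5′ end. In whole blood most miRNAs come from cells. miR-486-5p, miR-451 and miR-144 belong to the red cell lineage, miR-150 and miR-342 to lymphocytes, miR-223 to granulocytes and monocytes, and miR-142 to most blood cells other than mature red cells. Precursors give a 5p and a 3p arm, of which one is usually far more abundant.

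Of the 142 known rat miRNAs tested, 127 had a single mature sequence in RefSeq (build GRCr8). The sequences below belong to the miRNAs with the smallest unadjusted p in each direction and to the relatives they are compared with, written 5′ to 3′ with the seed in capitals. miR-103-3p and miR-107-3p share a seed, as do miR-501-3p and miR-500-3p, and miR-92a-3p and miR-25-3p. miR-3560 lies on the opposite strand of miR-501-3p and is its reverse complement over 22 bases.
miR-374-5p: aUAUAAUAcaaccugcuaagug
miR-421-3p: aUCAACAGacauuaauuggg
miR-140-5p: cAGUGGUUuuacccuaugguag
miR-103-3p: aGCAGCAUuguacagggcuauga
miR-107-3p: aGCAGCAUuguacagggcuauca
miR-191a-3p: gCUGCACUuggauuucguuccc
miR-191a-5p: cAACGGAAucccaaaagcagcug
miR-484: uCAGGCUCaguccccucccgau
miR-339-5p: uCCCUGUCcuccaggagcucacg
miR-501-3p: aAUGCACCcgggcaaggauuugg
miR-3560: cAAAUCCUugcccgggugcauu
miR-500-3p: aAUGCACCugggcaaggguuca
miR-92a-3p: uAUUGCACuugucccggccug
miR-25-3p: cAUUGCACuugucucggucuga
On GRCr8, miR-421-3p (X:72657352-72657371) and miR-374-5p (X:72657532-72657553) lay on the minus strand of 1 locus, 160 bases apart.

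The libraries held 2046544 to 2340177 counts at 0 Gy and 1642035 to 1880587 at 15 Gy, and miR-486-5p took most of them. Its share was 92.2%, 90.3% and 90.9% in 0 Gy replicates 1, 2 and 3, and 86.3%, 83.3% and 94.2% in 15 Gy replicates 1, 2 and 3. The mean share was 91.1% ± 0.957 (SD, n = 3) against 87.9% ± 5.67 (SD, n = 3). Irradiated replicates 1 and 2 lay below all controls and replicate 3 above them, so the groups overlapped (exact two-sided permutation test, p = 0.4, where 0.1 is the smallest p this design allows). Counts left for all other miRNAs were 159977, 226843 and 188786 at 0 Gy, and 225235, 314618 and 98794 at 15 Gy. The third irradiated library therefore had the fewest counts behind every other value, and the second the most.

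**Figure D1:**
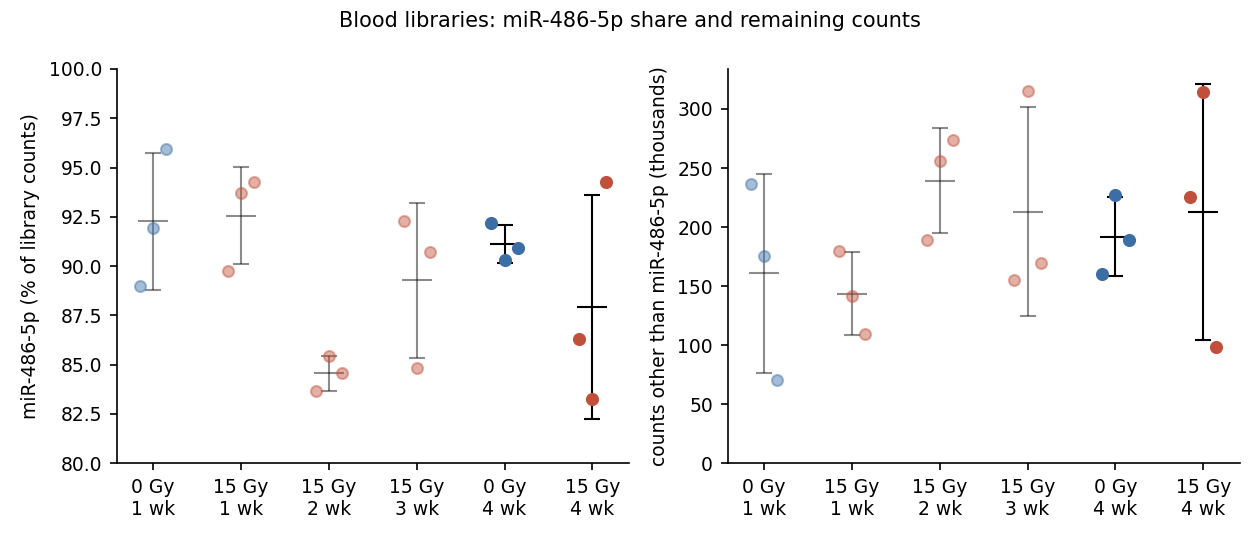
Share of counts in miR-486-5p (left, percent, axis from 80 to 100) and counts of all other miRNAs (right) in the 18 blood libraries. Points are libraries, bars the mean and SD, blue 0 Gy and red 15 Gy, with the 4 week groups in full colour. The 15 Gy 4 week libraries spread from 83.3% to 94.2%, across the whole range of the 0 Gy 4 week libraries.

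Because 1 miRNA held so much of each library, levels of the others are given as CPM, counts per 1000000 of a library total that was first multiplied by a TMM factor, which centres the bulk of the miRNAs. The factors of 15 Gy replicates 1, 2 and 3 were 1.28, 2.25 and 0.549, those of the controls 0.868, 0.859 and 1.07. On this scale no miRNA was called: edgeR's quasi-likelihood test gave 0 of 289 (0%) at an adjusted p under 0.05, and the smallest adjusted p was 0.637. At an unadjusted p under 0.05, 12 miRNAs lay upward (4.15% of those tested) and 10 downward (3.46%), 22 in all (7.61%). With 1 library left out these counts ran from 4 to 17 upward and from 5 to 14 downward, the lowest of both without 0 Gy replicate 3, and the highest without 0 Gy replicate 1 and 15 Gy replicate 3. Some of the 22 may hold the same reads under different names. Upward, the new loci chr10:20694998-20695142 and chr3:118996576-118996714 had identical counts and ran with miR-103-3p (r = 0.985 for log2 CPM over 18 libraries). Downward, the new locus chr1:95595998-95596190 ran with miR-150-5p (r = 0.995). DESeq2 called 0 upward and 4 downward (1.42% of the 282 it gave an adjusted p), each a locus listed as a new miRNA. The median log2 fold change was 0.09 and 161 of 289 values (55.7%) were above 0, with 44.3% below. The median absolute log2 fold change was 0.36, below the median standard error (SE) of 0.52. With library totals in place of TMM the median log2 fold change moved from 0.09 to 0.63, and with miR-191a-5p as the only reference to 0.53. The unadjusted split was then 14 upward and 2 downward, or 8 and 1. Other settings moved the median below 0. It was -0.015 without 15 Gy replicate 2. Without 2 of the 1 week libraries, whose dose is uncertain and which share only the fit, it was -0.038. That split was 6 upward and 13 downward. With only the 6 libraries compared in the fit, 0 lay upward and 6 downward at an unadjusted p under 0.05.

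**Figure D2:**
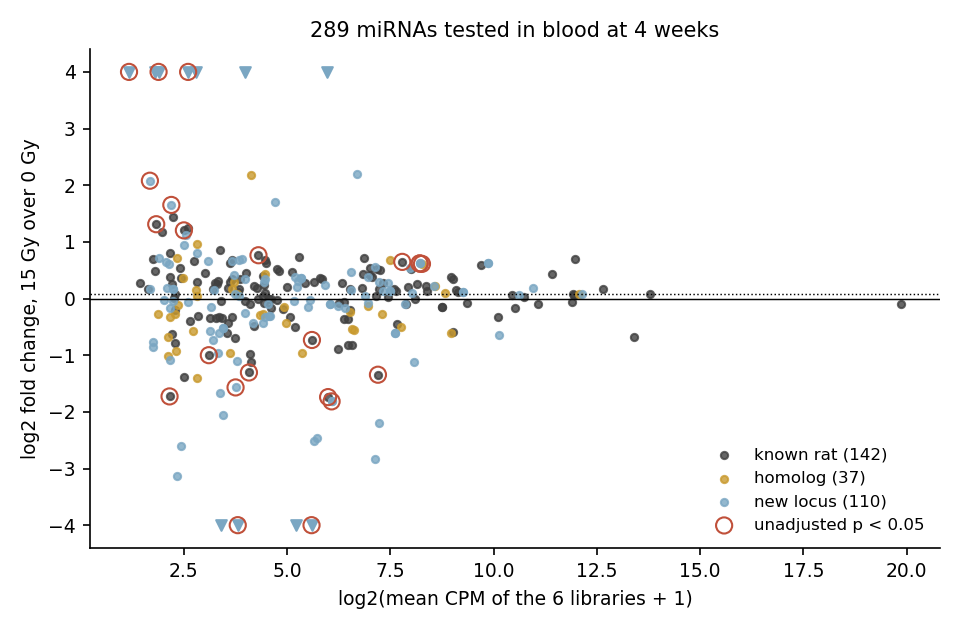
Log2 fold change (15 Gy over 0 Gy at 4 weeks) against log2 of the mean CPM of the 6 libraries plus 1, for the 289 miRNAs tested. Grey points are known rat miRNAs, ochre homologs of miRNAs of other species, blue new loci. Red rings mark an unadjusted p under 0.05, triangles values beyond 4 in size, and the dotted line the median of 0.09. All values beyond 4 belong to new loci.

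Among the 142 known rat miRNAs, 4 had an unadjusted p under 0.05 upward (2.82%) and 6 downward (4.23%). miR-374-5p, an X-linked miRNA of the miR-374 and miR-421 locus, had the smallest p. Its levels were 1.13, 1.49 and 1.80 CPM at 0 Gy and 2.38, 5.44 and 3.19 CPM at 15 Gy, from only 2, 3 and 4 counts against 5, 23 and 3. The groups did not overlap, as for 16 of the 289 miRNAs with higher irradiated values (5.54%) and 14 with lower ones (4.84%). Its log2 fold change was 1.31 (SE 0.41, edgeR adjusted p = 0.637). Without 15 Gy replicate 2, the library with the most counts, the log2 value was 0.79 and its unadjusted p was above 0.05.

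miR-421-3p, the neighbour of miR-374-5p, stood at 11.3, 16.9 and 13.5 CPM at 0 Gy and at 24.2, 18.5 and 28.7 CPM at 15 Gy. All irradiated libraries were above all controls, with a log2 fold change of 0.76 (SE 0.31, edgeR adjusted p = 0.637). The value ran from 0.54 to 0.87 with 1 library left out. Groups that do not overlap leave little room for a change of sign there.

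miR-103-3p, a widely expressed miRNA made within the introns of pantothenate kinase genes, was the most abundant of those upward. It stood at 188, 172 and 155 CPM at 0 Gy and at 208, 246 and 354 CPM at 15 Gy, without overlap. The log2 fold change was 0.65 (SE 0.25, edgeR adjusted p = 0.637). It was 0.34 without 15 Gy replicate 3, the highest library. miR-107-3p, of the same seed and differing near the 3′ end, had 13.5, 12.4 and 11.7 CPM against 12.4, 16.3 and 13.8 CPM. Its groups overlapped and its log2 fold change was 0.18 (SE 0.26), and 0.0046 without 15 Gy replicate 2. Reads short of that difference could be counted under either name.

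miR-140-5p, best known from cartilage, stood at 3.39, 3.48 and 1.80 CPM at 0 Gy and at 4.28, 10.9 and 4.25 CPM at 15 Gy. These levels came from only 6, 7 and 4 counts against 9, 46 and 4. The groups did not overlap, and the log2 fold change was 1.20 (SE 0.55, edgeR adjusted p = 0.654). Without 15 Gy replicate 2 it was 0.52. The next upward by p were miR-221-3p, miR-30a-5p, miR-148b-5p, miR-148b-3p, miR-505-3p and miR-26b-5p, with log2 fold changes from 0.42 to 1.18 and unadjusted p from 0.0951 to 0.143. Of these, miR-221-3p, miR-30a-5p and miR-148b-5p had groups that did not overlap. Without 15 Gy replicate 3 miR-221-3p stood at 0.33. Without 0 Gy replicate 3, miR-30a-5p stood at 0.35, miR-26b-5p at 0.45 and miR-505-3p at 1.18, and without 0 Gy replicate 2 miR-148b-3p stood at 0.20 and miR-505-3p at 0.36. miR-148b-3p was 0.72 without 0 Gy replicate 1 and 0.26 without 15 Gy replicate 2.

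On the downward side, miR-191a-3p, the rare arm of its precursor, had 3.95, 7.47 and 4.06 CPM at 0 Gy and 1.43, 0.710 and 3.19 CPM at 15 Gy. Each irradiated library held 3 counts, against 7, 15 and 9 in the controls. The groups did not overlap and the log2 fold change was -1.73 (SE 0.67, edgeR adjusted p = 0.637). The abundant arm of the same precursor, miR-191a-5p, had 28132, 28280 and 25518 counts at 0 Gy and 22195, 24567 and 25680 at 15 Gy, with a log2 fold change of 0.07 (SE 0.49). For each count of miR-191a-5p, miR-486-5p had 67.1, 74.7 and 74.0 counts at 0 Gy and 63.8, 63.7 and 63.0 at 15 Gy. Among 62 known miRNAs with a mean over 100 counts in the 6 libraries, this ratio had the smallest spread (SD 0.112 on the log2 scale, chosen after the values were seen). Over all 18 blood libraries its SD was 0.567, above those of the ratios to miR-143-3p (0.333) and miR-10a-5p (0.397).

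miR-484, a miRNA processed without Drosha, had 48.5, 49.3 and 80.8 CPM at 0 Gy and 33.3, 38.1 and 36.1 CPM at 15 Gy. All irradiated libraries were lower, and close to each other. The log2 fold change was -0.73 (SE 0.30, edgeR adjusted p = 0.637), and -0.45 without 0 Gy replicate 3. miR-339-5p had 9.03, 9.46 and 12.6 CPM against 4.75, 7.81 and 2.12 CPM, again without overlap, with a log2 fold change of -1.0 (SE 0.45, edgeR adjusted p = 0.654). It was -1.55 without 15 Gy replicate 2. The counts of miR-339-5p were 16, 19 and 28 against 10, 33 and 2.

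miR-150-5p, the lymphocyte miRNA, had 71.1, 21.9 and 197 CPM at 0 Gy and 24.7, 30.3 and 31.9 CPM at 15 Gy. The 3 irradiated libraries were alike, while the controls ranged widely and 0 Gy replicate 2 was the lowest of all 6. The log2 fold change was -1.74 (SE 0.77, edgeR adjusted p = 0.637), and -0.68 without 0 Gy replicate 3. miR-423-3p had a similar shape, with 109, 130 and 390 CPM at 0 Gy and 123, 65.3 and 59.5 CPM at 15 Gy. Its log2 fold change was -1.34 (SE 0.56, edgeR adjusted p = 0.637), and -0.54 without 0 Gy replicate 3.

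miR-501-3p, of an X-linked cluster, had 35.0, 13.4 and 18.95 CPM at 0 Gy and 3.80, 7.34 and 16.9955 CPM at 15 Gy, and the groups overlapped. Its log2 fold change was -1.30 (SE 0.57, edgeR adjusted p = 0.637), -0.84 without 0 Gy replicate 1 and -2.03 without 15 Gy replicate 3. miR-3560, the reverse complement shown above, had 54, 34 and 42 counts against 8, 29 and 20, and miR-501-3p had 62, 27 and 42 against 8, 31 and 16. The counts ran side by side in all 6 libraries, so both names may hold the same reads and were read as 1 observation. miR-500-3p, which shares the seed, had a log2 fold change of 0.01. The remaining downward miRNAs by p were miR-92a-3p, miR-18a-3p and miR-125a-5p, with log2 fold changes of -0.68, -0.70 and -0.98 and unadjusted p from 0.0706 to 0.115. Of these, miR-18a-3p and miR-125a-5p had groups that did not overlap.

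**Figure D3:**
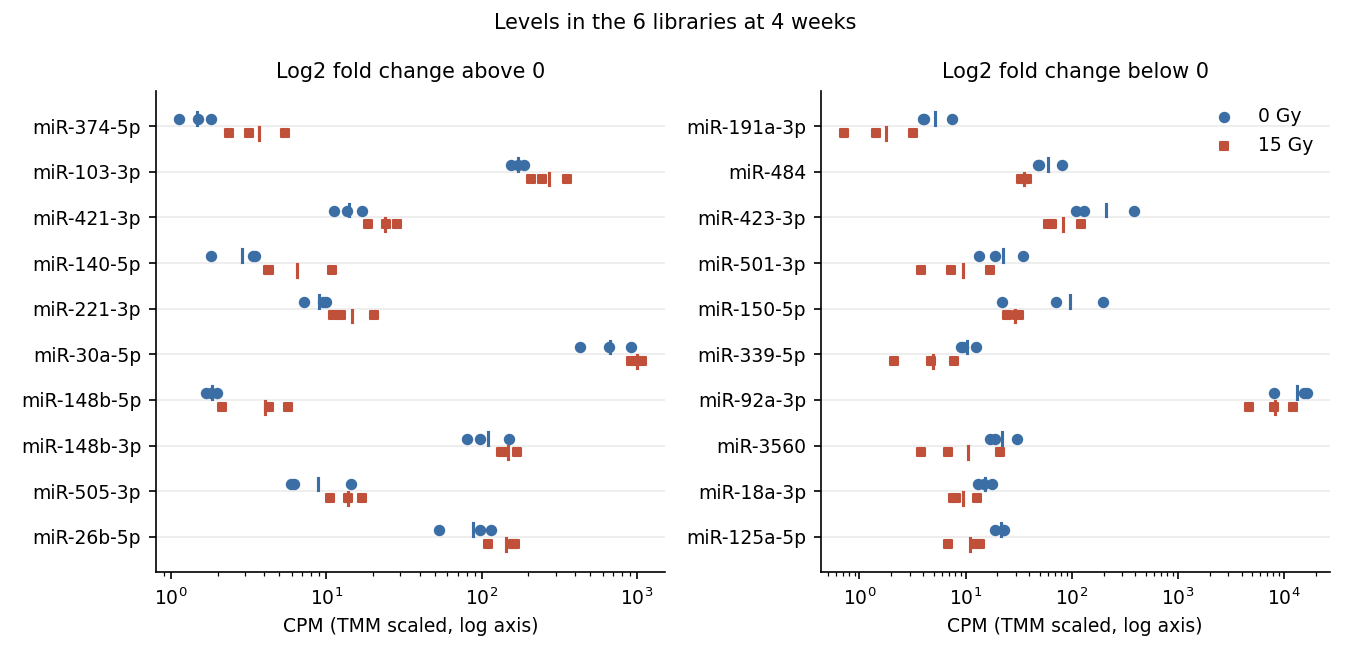
CPM after TMM scaling (log axis) in the 6 libraries for the 10 known miRNAs with the smallest unadjusted p upward (left) and downward (right). Blue circles are 0 Gy, red squares 15 Gy, vertical ticks group means. On the left, miR-374-5p, miR-103-3p, miR-421-3p, miR-140-5p, miR-221-3p, miR-30a-5p and miR-148b-5p separate the groups. On the right, miR-191a-3p, miR-484, miR-339-5p, miR-18a-3p and miR-125a-5p do. A single 0 Gy library sets the means of miR-423-3p and miR-150-5p apart.

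Among the 127 miRNAs with a sequence, both arms were tested for 22 precursors, and their log2 fold changes had the same sign in 16. There, miR-30c-5p was counted with each of its precursors, and miR-148b and miR-423, with an arm lacking a sequence, were left out. In opposite pairs, miR-18a-5p stood at 0.19 beside miR-18a-3p at -0.70, and miR-339-3p at 0.17 beside miR-339-5p. The seed families were described by their signs. All 4 tested members with the seed AAAGUGC (miR-17-5p, miR-20a-5p, miR-93-5p and miR-106b-5p), a family that targets regulators of the cell cycle, lay above 0 with a median log2 fold change of 0.35. miR-93-5p had 468, 478 and 430 CPM at 0 Gy against 703, 553 and 481 CPM, a narrow separation with a log2 fold change of 0.34 (SE 0.24), and 0.17 without 15 Gy replicate 1. The 4 members with the seed AUUGCAC split, 2 above and 2 below 0, with a median of -0.27. Of these, miR-92a-3p had 8123, 16415 and 15544 CPM against 12146, 4685 and 8142 CPM, and its log2 value was -1.06 without 15 Gy replicate 1 and -0.44 without 15 Gy replicate 2. The 7 members of the let-7 seed family had 3 values above 0 and a median of -0.09, which ran from -0.62 without 15 Gy replicate 1 to 0.23 without 15 Gy replicate 2.

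The lists of blood cell miRNAs were described by the counts of their members beside the median of 0.09 over all 289. Of 7 tested red cell miRNAs, 6 were above 0 with a median log2 fold change of 0.19, and none had an unadjusted p under 0.05. The member below 0 was miR-486-5p, at -0.10 (SE 0.48), which held 89.6% of all counts in the 6 libraries. The median was 0.46 without 15 Gy replicate 3 and 0.37 without 0 Gy replicate 2, and without 0 Gy replicate 3 only 4 of 7 were above 0. miR-451-5p had 3995, 3480 and 1673 CPM at 0 Gy and 3985, 7772 and 3086 CPM at 15 Gy, with a log2 fold change of 0.70 (SE 0.47, edgeR adjusted p = 0.775). It was 0.18 without 15 Gy replicate 2 and 0.41 without 0 Gy replicate 3. miR-144-3p and miR-144-5p were highest in 15 Gy replicate 2 (265 and 296 CPM) and lowest in 15 Gy replicate 3 (32.9 and 34.0 CPM), so both extremes of the 6 libraries were irradiated. Their log2 fold changes were 0.19 (SE 0.63) and 0.53 (SE 0.63), and -1.19 and -0.42 without 15 Gy replicate 2.

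Of 6 tested lymphocyte miRNAs, 3 were above 0 with a median of 0.02, and only miR-150-5p had an unadjusted p under 0.05. The median ran from -0.27 without 15 Gy replicate 3 to 0.09 without 0 Gy replicate 3. miR-342-3p, also of lymphocytes, had 10.2, 7.47 and 19.4 CPM against 5.23, 5.44 and 18.1 CPM, and a log2 fold change of -0.43 (SE 0.52), which ran from -1.25 without 15 Gy replicate 3 to 0.059 without 0 Gy replicate 3. Myeloid and pan-leukocyte miRNAs had 4 of 5 values above 0 and a median of 0.38, which ran from -0.35 without 15 Gy replicate 2 to 0.63 without 0 Gy replicate 1 and was 0.17 without 0 Gy replicate 3. In that list miR-142-5p followed miR-144, with 178, 88.6 and 85.3 CPM at 0 Gy and 83.2, 369 and 55.2 CPM at 15 Gy. Its log2 fold change of 0.53 (SE 0.56) became -0.79 without 15 Gy replicate 2. Of the platelet list 3 of 6 were above 0 with a median of 0.10, which ran from -0.043 without 0 Gy replicate 2 to 0.19 without 0 Gy replicate 1 and was 0.013 without 15 Gy replicate 2. There, miR-221-3p stood at 0.68 (SE 0.38) and its cluster partner of the same seed, miR-222-3p, at -0.35 (SE 0.31).

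The miR-17-92 cluster and its relatives, which favour proliferation of blood progenitors, had 10 of 13 values above 0 and a median of 0.20. With 1 library left out, 7 or 8 of 13 were above 0, and the median ran from 0.066 without 15 Gy replicate 1 to 0.35 without 0 Gy replicate 1. It was 0.32 without 15 Gy replicate 3. miR-19a-3p had 3.39, 2.99 and 0 CPM against 3.33, 10.7 and 2.12 CPM, with a log2 fold change of 1.43 (SE 0.99), 0.41 without 15 Gy replicate 2 and 0.83 without 0 Gy replicate 3. The miR-30 family had 5 of 5 above 0 with a median of 0.38, which was 0.64 without 0 Gy replicate 1. Without 15 Gy replicate 1, 4 of 5 were above 0. In it, miR-30a-5p stood at 911, 661 and 430 CPM at 0 Gy and at 1013, 919 and 1072 CPM at 15 Gy, and miR-30c-5p at 259, 240 and 271 CPM against 299, 279 and 343 CPM. Both pairs of groups were separate, with log2 fold changes of 0.58 (SE 0.33) and 0.26 (SE 0.23). miR-30c-5p stood at 0.11 without 15 Gy replicate 3 and at 0.16 without 0 Gy replicate 2. In the miR-26 list 2 of 2 were above 0 (median 0.40), in the miR-15 and miR-16 list 1 of 2 (median 0.07), and in the miR-29 list the 1 member tested (0.26). With 1 library left out these medians ran from 0.18 (0 Gy replicate 3) to 0.65 (0 Gy replicate 2) for miR-26, from -0.25 (15 Gy replicate 1) to 0.42 (0 Gy replicate 2) for miR-15 and miR-16, and from -0.025 (15 Gy replicate 3) to 0.35 (15 Gy replicate 2) for miR-29.

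Of the miRNAs whose genes p53 activates, miR-192-5p, miR-194-5p and miR-215 were tested and stood at 0.51, 0.66 and 0.54 (SE 0.38, 0.45 and 0.68, edgeR adjusted p from 0.775 to 0.944). Their median of 0.54 was 0.30 without 0 Gy replicate 3, and all 3 stayed above 0 with any 1 library left out. With other controls miR-215 was below 0, at -0.59 with 0 Gy 1 week and -0.022 with both 0 Gy groups. miR-192-5p and miR-215 share the seed UGACCUA, and each lies near a copy of miR-194-5p. The 3 may therefore not be separate observations. The miR-34 members of that list did not pass the filter on low counts. Of the inflammation list 4 of 5 were above 0 (median 0.38), and the median was 0.15 without 0 Gy replicate 3 and 0.68 without 0 Gy replicate 1. miR-21-5p, raised in many injuries, had 284, 243 and 105 CPM against 361, 318 and 233 CPM, with a log2 fold change of 0.53 (SE 0.45), 0.21 without 0 Gy replicate 3 and 0.80 without 0 Gy replicate 1. Among the 14 miRNAs that the study names, a list partly drawn from these libraries, 13 were tested, 9 were above 0 and the median was 0.19. Without 0 Gy replicate 3, 6 of 13 were above 0 and the median was -0.014. It was 0.58 without 0 Gy replicate 1, 0.33 without 0 Gy replicate 2, 0.39 without 15 Gy replicate 1 and 0.47 without 15 Gy replicate 3.

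Markers of the irradiated organs differed in level. Of 9 miRNAs of lung epithelium 2 passed the filter (miR-182 and miR-183-5p), and the 9 together gave 22.3 to 55.2 CPM, highest and lowest both at 15 Gy. The endothelial miR-126a arms summed to 14.9 to 36.7 CPM at 0 Gy and 25.6 to 39.4 CPM at 15 Gy (2 of 2 above 0, median 0.39), with a median of 0.02 without 15 Gy replicate 3 and 0.75 without 0 Gy replicate 1. miR-126a-3p, with 8, 4 and 7 counts against 5, 11 and 7, is also a member of the platelet list. Its cell of origin cannot be told in whole blood. The 4 smooth muscle miRNAs summed to 187, 137 and 95.7 CPM at 0 Gy and to 125, 82.4 and 233 CPM at 15 Gy, nearly all of it miR-143-3p, the only one tested. Its log2 fold change was 0.05 (SE 0.38), -0.51 without 15 Gy replicate 3 and 0.32 without 0 Gy replicate 1, and it was below 0 with RLE factors and in DESeq2. Of the heart and skeletal muscle list only miR-133a-3p was tested, with 9, 6 and 2 counts at 0 Gy and 31, 2 and 6 at 15 Gy. miR-208a-5p and miR-499-5p were at 0 in all 6 libraries. The log2 fold change of miR-133a-3p was 1.25 (SE 0.87), and -0.07 without 15 Gy replicate 1. The liver miRNA miR-122-5p had 8, 10 and 9 counts against 11, 9 and 1, with a log2 fold change of -0.62 (SE 1.00), -1.34 without 15 Gy replicate 1 and -0.39 without 15 Gy replicate 3. No member of any list passed the adjusted threshold in edgeR.

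**Figure D4:**
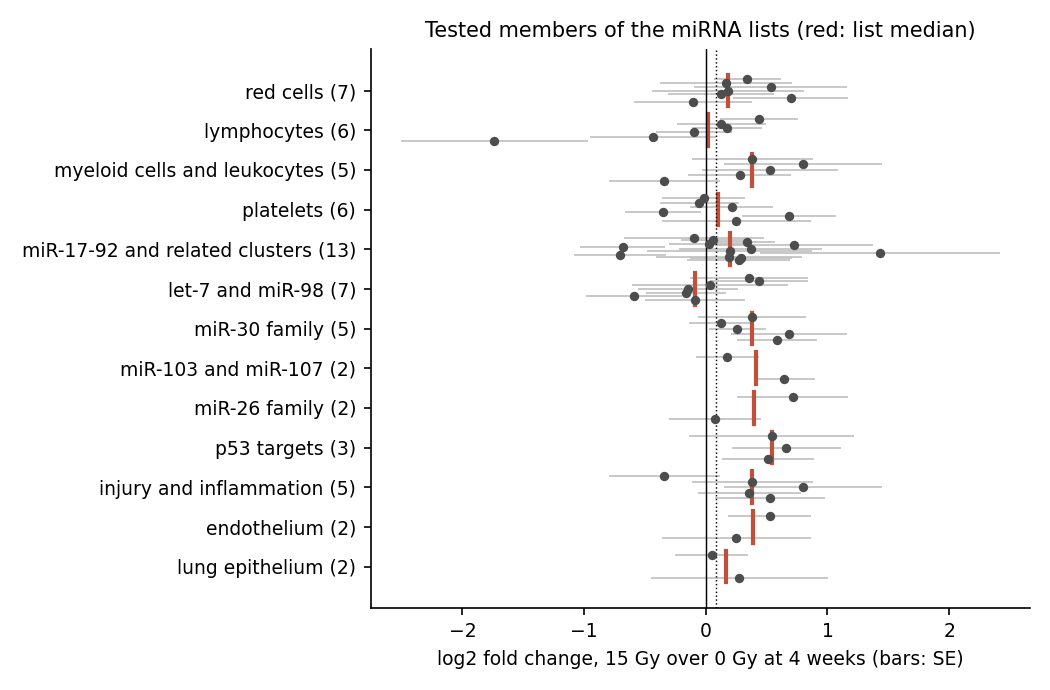
Log2 fold change (15 Gy over 0 Gy at 4 weeks) of the tested members of 13 lists, with the number tested in brackets. Points are miRNAs, grey bars the SE, red ticks list medians, the solid line 0 and the dotted line the median of all tested, 0.09. Most SE bars cross 0, and miR-150-5p at -1.74 is the lowest point.

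The content of G and C differed between the miRNAs above and below 0. Of the 127 with a sequence, the 65 at or below the median content of 45.45% had 50 values above 0 and a median log2 fold change of 0.27, and the 62 above it had 31 values above 0 and a median of 0.00. Across these miRNAs, which share their libraries, Spearman's rho of GC content with the log2 fold change was -0.437. For the deviation of a single library from the mean of the 6, rho was 0.624 in 0 Gy replicate 3, -0.157 and -0.176 in the other controls, and -0.385, -0.279 and 0.236 at 15 Gy. Taking group differences of log2(CPM + 1), rho was -0.392 with all 6 libraries and -0.0116 without 0 Gy replicate 3. That library also held the extreme value most often, being farthest from the median for 38 of 118 miRNAs with a mean above 100 counts. The part of GC content in the differences above was not tested.

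The 4 loci that DESeq2 called downward lay in places where the table lists neighbouring or nested loci (rn4 coordinates). The locus at chr1:56486961-56487047 had 350, 0 and 192 counts at 0 Gy, and that at chr1:56486962-56487048, offset by 1 base, had 0, 157 and 0. Both were listed at 0 in all irradiated libraries. In the 12 blood libraries where either was above 0, their counts were closest to those of miR-99b-5p (median ratio 0.963). miR-99b-5p, an miRNA of the miR-99b, let-7e and miR-125a cluster, had 313, 150 and 187 counts at 0 Gy and 62, 76 and 136 at 15 Gy, and a log2 fold change of -0.81 (SE 0.68, DESeq2 adjusted p = 0.729). It ran from -2.27 without 15 Gy replicate 3 to -0.33 without 0 Gy replicate 1. So where the new loci stood at 0, the known miRNA still had counts.

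The same held for the other calls. The locus at chr10:75386851-75386932 had 0, 72 and 47 counts against 0, 0 and 0, while the locus enclosing it, chr10:75386826-75386952, had 147, 72 and 47 against 91, 392 and 0. The locus at chr3:118996605-118996685 had 0, 0 and 484 counts against 0, 0 and 0, and the enclosing chr3:118996576-118996714 had 469, 434 and 484 against 546, 1417 and 451. The counts of these places ran with miR-301a-3p and miR-103-3p, at median ratios of 1.08 and 1.32. With overlapping loci joined, DESeq2 called 1 place, that on chromosome 1, and edgeR 0. Upward, the new loci with the smallest p were chr19:11114628-11114774, with 1, 3 and 1 counts against 3, 26 and 3, and chr8:127390258-127390406, with 0, 0 and 0 against 3, 26 and 0. Most of their counts came from 15 Gy replicate 2.

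The change at 4 weeks was set beside those of the earlier weeks. The 1 and 2 week groups were compared with the 0 Gy 1 week controls, and the 3 and 4 week groups share the 0 Gy 4 week controls. For 2 of the 1 week libraries, 1 at each dose, another table of the study gives the opposite dose. GEO's labels were followed here. The log2 fold changes of miR-374-5p at 1, 2, 3 and 4 weeks were -0.27, 1.15, 1.48 and 1.31. Those of miR-421-3p were -0.45, 0.07, 0.78 and 0.76, and those of miR-140-5p -0.06, 0.83, 1.35 and 1.20. miR-191a-3p had 0.05, -0.35, -1.23 and -1.73, and miR-501-3p -0.12, -0.26, -1.56 and -1.30. In miR-103-3p they were 0.23, 0.28, 0.64 and 0.65, and in miR-339-5p 0.60, -0.08, -0.60 and -1.0. miR-484 had 0.09, -1.0, -0.57 and -0.73, and miR-423-3p -0.37, -1.65, -1.49 and -1.34, both farthest from 0 at 2 weeks. miR-150-5p had -2.70, -2.70, -2.73 and -1.74. These 10 miRNAs were chosen for their small p at 4 weeks and the 3 week values rest on the same controls, so likeness of the 3 and 4 week values is no separate evidence.

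Tested directly between the 15 Gy groups of 4 and 3 weeks, edgeR called no miRNA (0 of 289, 4 or 1.38% at an unadjusted p under 0.05, smallest adjusted p 1). DESeq2 gave no adjusted p for 7 of the 289, and called 1 upward and 3 downward, each a new locus. For miR-150-5p the difference of 4 from 3 weeks was 0.99 (95% interval -0.50 to 2.48, edgeR adjusted p = 1). The 4 week change differed from the 2 week change for 1 of 289 (0.346%, with 2.42% at an unadjusted p under 0.05), the new locus chr19:25638547-25638840. It had 58, 80 and 77 counts against 66, 217 and 20 at 4 weeks, and was listed at 0 in the 3 libraries of the 0 Gy 1 week group. With the 2 libraries of uncertain dose exchanged, 0 were called. For miR-484 that difference was 0.27 (95% interval -0.55 to 1.09) and for miR-421-3p 0.69 (95% interval -0.15 to 1.54).

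**Figure D5:**
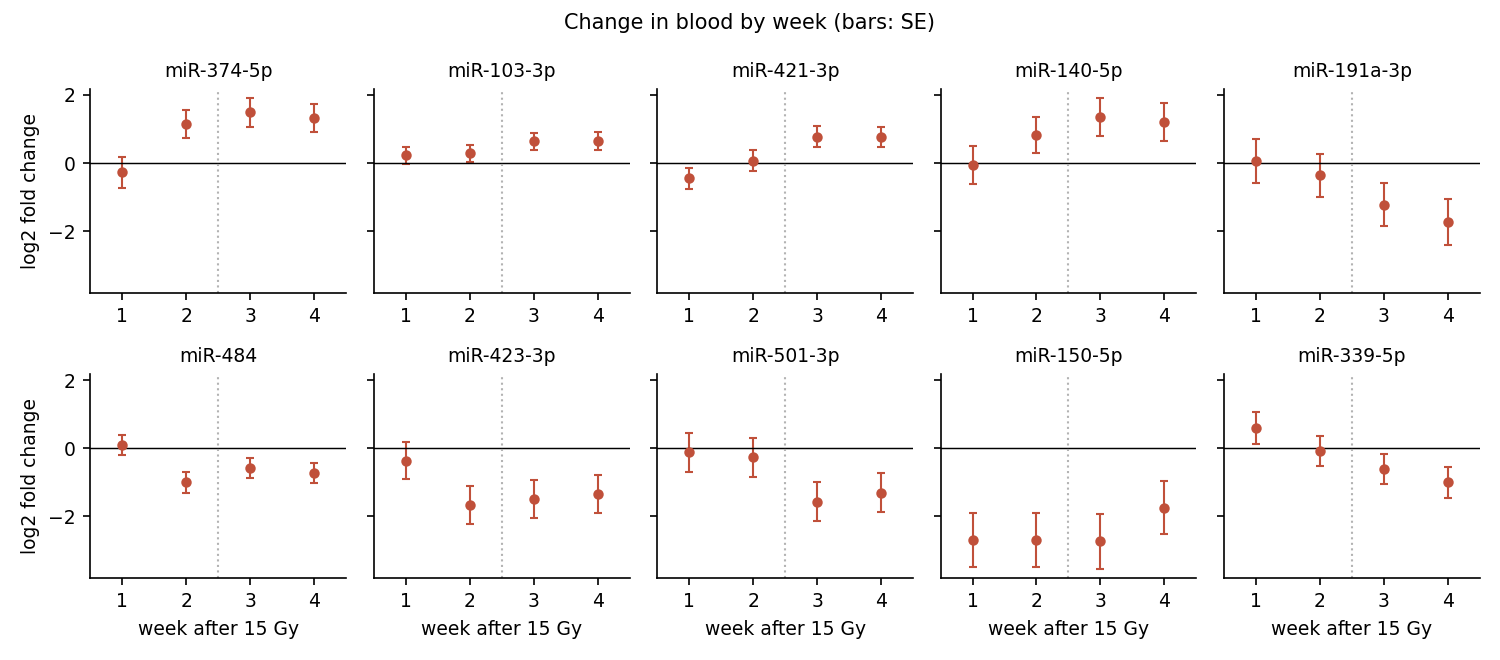
Log2 fold change in blood at 1 to 4 weeks after 15 Gy, with SE, for the 10 known miRNAs that had an unadjusted p under 0.05 at 4 weeks. Left of the dotted line the control is 0 Gy 1 week, right of it 0 Gy 4 week. miR-150-5p lies near -2.70 at 1 to 3 weeks and at -1.74 at 4 weeks.

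The change in blood was also set against that in irradiated lung of the same week. The difference of the changes was called for 0 of 576 miRNAs by edgeR (0%), with 52 (9.03%) at an unadjusted p under 0.05 and a smallest adjusted p of 0.0786. DESeq2 gave no adjusted p for 260 of the 576, and called 3 upward and 9 downward. The calls were new loci apart from the known miRNA miR-501-3p. Its log2 fold change was 2.33 in lung and -1.30 in blood, a difference of -3.40 in the joint fit (SE 1.12, edgeR adjusted p = 0.426, DESeq2 adjusted p = 0.0485). With overlapping new loci joined DESeq2 no longer called it. Its mirror partner miR-3560, at 2.56 in lung and -1.11 in blood, was not called by either tool (edgeR adjusted p = 0.523, DESeq2 adjusted p = 0.091). For miR-374-5p the difference of blood from lung was 1.51 (SE 0.73, edgeR adjusted p = 0.543), and for miR-103-3p 1.34 (SE 0.53, edgeR adjusted p = 0.535). For miR-150-5p it was -1.15 (95% interval -2.89 to 0.60).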

How the data were processed

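The deposited table holds raw read counts of 947 known, homologous and new miRNAs. The authors trimmed adapters (Trim Galore 0.2.5), mapped reads to miRBase v19 with Bowtie 1.1.1 and predicted new loci with miRanalyzer (build rn4, from the submitters' processing notes). The authors tested with DESeq. Counts were tested here with edgeR 4.0.16 (R 4.3.3): TMM, filterByExpr by group, quasi-likelihood F test, Benjamini-Hochberg over all tested, all 18 blood libraries in 1 fit (all 36 for lung). SE is the size of the log2 fold change over the square root of F, and edgeR's Poisson bound can make p larger than SE implies. DESeq2 1.42.0 was the second tool. The script was tested on simulated counts. miR-486-5p, filed among homologs, was taken as known. p-values measure the spread between pools. Named were the 10 known miRNAs with the smallest p in each direction, calls of either tool, the 10 most abundant, list members, and new loci among the 3 smallest p of a contrast, the 10 most abundant or calls. Members and lists were chosen with earlier results of these data known. Relatives, partner arms and mirror partners of these were named after their values were seen. Reads carry no molecular identifiers, so counts are not independent molecules.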

Additional observations from a re-analysis of the deposited data

Results flagged for a closer look

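The difference between the 4 week and the 2 week change was past the threshold for the new locus chr19:25638547-25638840 alone, at -9.11 on the log2 scale (SE 0.86, edgeR adjusted p = 4.956e-05). The locus was listed at 0 in all 3 libraries of the 0 Gy 1 week group and had 58, 80 and 77 counts at 0 Gy 4 weeks, 66, 217 and 20 at 15 Gy 4 weeks and 80, 91 and 83 at 15 Gy 2 weeks. Its own log2 fold change at 4 weeks was -0.04 (SE 0.41). The fold behind the difference rests on a group at 0.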

How the results depend on the processing

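The main comparison gave 0 calls in edgeR under every alternative with the 0 Gy 4 week group as the only control, among them the 6 that leave out 1 library each (0 to 0). DESeq2 gave 4, and 1 with overlapping new loci joined (an alternative chosen after seeing the data). With 0 Gy 1 week or both 0 Gy groups as control edgeR gave 1, the locus chr19:25638547-25638840. At an unadjusted p under 0.05, 0 lay upward and 6 downward with only the groups compared in the fit, 4 and 8 with known rat miRNAs only, 4 and 2 with a mean above 100 counts, and 14 and 19 with no filter. The difference from 3 weeks gave 4 calls in DESeq2 and 0 to 1 with 1 library left out, the call coming without 15 Gy 3 week replicate 1. The difference from the 2 week change gave 4 in DESeq2, 2 with joined loci in DESeq2, 1 to 1 with 1 library left out, and 0 with a mean above 100 counts, with miR-191a-5p as reference, with known rat miRNAs only, or with 2 libraries of the 1 week groups exchanged, whose columns stand in different groups in 2 tables of the study. The difference from lung gave 12 in DESeq2 and 4 with joined loci, and 0 to 0 with 1 library left out. The share of counts in miR-486-5p differed by -6.36 to -0.872 points with 1 library left out. The cause of these moves was not tested.

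The deviations of same-numbered 0 Gy and 15 Gy libraries correlated at -0.14, 0.12 and 0.15. The best correlations with another number were 0.09, 0.09 and 0.05. Between the 15 Gy groups of 3 and 4 weeks they were 0.07, 0.24 and 0.15 for the same number. With another number the best there were -0.01, -0.10 and 0.10. Values this small cannot settle whether the replicate numbers pair the samples. With the replicate block edgeR gave 0 calls, 14 upward and 7 downward at an unadjusted p under 0.05, and it changed no call of the other comparisons (0, 1 and 0).

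Of 52 named miRNAs 34 kept their sign in every alternative that gave a value, 16 reversed and 2 had none left in 1 alternative. These 2 are DESeq2 calls: without 0 Gy replicate 3 the locus chr3:118996605-118996685, and without 0 Gy replicate 2 the locus chr1:56486962-56487048, was at 0 in all libraries compared. The 10 known miRNAs with the smallest p in each direction kept their sign. They were chosen by these same values, so this is no separate evidence. With 1 library left out, log2 fold changes ran from -0.98 to 0.21 for miR-486-5p, -0.81 to 0.39 for miR-191a-5p, -0.23 to 0.84 for miR-16-5p, -0.20 to 0.40 for miR-26a-5p, -0.17 to 0.31 for miR-25-3p, -0.66 to 0.25 for miR-3596a, -0.31 to 0.13 for miR-181a-5p, -1.25 to 0.059 for miR-342-3p, -0.79 to 0.96 for miR-142-5p, -1.19 to 0.58 for miR-144-3p, -0.42 to 0.93 for miR-144-5p and -0.067 to 1.84 for miR-133a-3p. With library totals and with miR-191a-5p as reference, miR-3596a stood at 0.43 and 0.32, miR-181a-5p at 0.29 and 0.19, and miR-222-3p at 0.20 and 0.10. With 0 Gy 1 week as control, miR-16-5p stood at -0.092, miR-26a-5p at -0.22, miR-25-3p at -0.15, miR-222-3p at 0.13, miR-342-3p at 0.077, miR-215 at -0.59, miR-99b-5p at 0.11 and miR-122-5p at 0.60. With both controls, miR-26a-5p, miR-25-3p and miR-215 stood at -0.070, -0.047 and -0.022. miR-191a-5p stood at -0.066 with no filter, -0.0012 with a mean above 100 counts, -0.018 with RLE factors and in DESeq2, -0.067 with the 2 libraries left out and -0.099 with the replicate block. miR-25-3p stood at -0.039 with no filter, -0.0022 with RLE factors, -0.0025 in DESeq2, -0.025 with known miRNAs only and -0.077 with the 2 libraries left out, and miR-26a-5p at -0.019 and -0.042 in the last 2. Depth limits the rarer miRNAs: those under about 10 counts in a library, such as miR-374-5p, rest on few counts.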

Other observations

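Antisense pairs were common among the known miRNAs. In 9 pairs the mature sequences lay on opposite strands of the same bases over 20 to 22 of them, miR-501-3p with miR-3560 among them. let-7d-5p and miR-3596b had 394, 1008 and 1427 counts against 391, 992 and 1421 at 0 Gy, and 1354, 1017 and 330 against 1316, 1019 and 341 at 15 Gy. let-7a-5p and miR-3596a differed in level, with 914, 1871 and 1271 against 5579, 11242 and 6713 counts at 0 Gy. In each of these pairs, reads of the 2 names cannot be told apart if the counting did not use strand, which is not given in the sources used here.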
